A study of Mus musculus with 6 samples.

Results

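The young neuron markers are 10 genes that are switched on as a neural progenitor leaves the cell cycle and becomes a neuron: Dcx, Elavl3, Elavl4, Tubb3, Stmn2, Map2, Rbfox3, Gap43, Snap25 and Nefl. They were taken as the array features annotated to exactly 1 of these symbols. Each gene had 1 such feature (a transcript cluster, which summarizes the probes along a locus), so 10 of the 41345 transcript clusters, and 10 of the 22180 genes tested, are described here. The study compared the transcriptomes of progenitors from 2 levels of the mouse neural tube, and the markers are read here for neuronal RNA inside their neurospheres. Neural progenitor cells (NPCs), called NSCs in the sample labels, were derived from brachial or from tail tissue of E12.5 embryos (E12 in the methods and in part of the labels). The labels give no genotype, strain or sex, and the methods name C57BL/6 mice as the source of the study's wild-type embryos without tying them to these arrays. Per the methods, brachial tissue lay between the hindbrain and the forelimbs, and somite tissue was removed from tail pieces as far as possible. Both groups were expanded as floating neurospheres in serum-free N2 medium with 20 ng/ml of bFGF and 20 ng/ml of EGF added each day, growth factors that hold progenitors in division, and neither group was treated further. Total RNA of 3 brachial and 3 tail samples was hybridized to 1 array each.

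In the developing spinal cord, proneural transcription factors push dividing progenitors out of the cell cycle, and the newborn neuron then changes its cytoskeleton, its RNA processing and its membrane traffic. Doublecortin, βIII-tubulin, MAP2 and stathmin-2 shape the microtubules of the growing processes, the Hu proteins encoded by Elavl3 and Elavl4 bind and stabilize neuronal mRNAs, and NeuN, encoded by Rbfox3, regulates splicing. GAP-43 acts in the growth cone, SNAP-25 in vesicle fusion, and the neurofilament light chain, encoded by Nefl, in the calibre of the axon. Such transcripts are not fully exclusive to neurons, and Map2 transcripts also occur in dividing neural and glial progenitors.

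The promoters of 3 markers are shown because Elavl3 and Dcx were the markers whose groups did not overlap, while Elavl4 is the closest relative of Elavl3 on the list and had no such separation. Each sequence is the 250 bases before a start site in RefSeq (GRCm38.p6), 5′ to 3′. A start site was matched for 6 of the 10 genes, with 10 start sites in all. Capitals mark 3 motifs, each searched on both strands. The first is CAGCTG and the second is CAGATG, both forms of the E-box, CANNTG, to which proneural bHLH factors bind, so that each also counts as a CANNTG. The third is TATAAA, the core of a TATA box. The Elavl3 window lies at chr9:22052024-22052273 on the minus strand, the Dcx window at chrX:143933220-143933469 on the minus strand and the Elavl4 window at chr4:110287528-110287777 on the minus strand.
Elavl3: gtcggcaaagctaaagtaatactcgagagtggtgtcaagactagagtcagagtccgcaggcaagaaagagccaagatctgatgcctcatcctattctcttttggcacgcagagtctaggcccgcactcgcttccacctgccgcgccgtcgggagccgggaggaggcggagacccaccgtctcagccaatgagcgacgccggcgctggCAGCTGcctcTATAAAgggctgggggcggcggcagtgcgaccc
Dcx: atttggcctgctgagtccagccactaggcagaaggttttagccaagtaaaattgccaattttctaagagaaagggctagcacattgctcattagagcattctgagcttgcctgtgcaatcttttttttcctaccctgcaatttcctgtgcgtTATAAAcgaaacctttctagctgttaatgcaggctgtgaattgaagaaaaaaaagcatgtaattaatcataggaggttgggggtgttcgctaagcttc
Elavl4: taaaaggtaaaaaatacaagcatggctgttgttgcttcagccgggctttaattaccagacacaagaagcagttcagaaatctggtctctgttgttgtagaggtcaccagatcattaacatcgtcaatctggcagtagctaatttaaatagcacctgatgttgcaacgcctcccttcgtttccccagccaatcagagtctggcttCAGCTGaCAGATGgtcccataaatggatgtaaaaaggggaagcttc
In the Elavl3 window CAGCTG began 43 bases and TATAAA 33 bases before the start site. The Dcx window, 1 of 2 for this gene, held TATAAA, 98 bases before the start, and 0 copies of CANNTG, and the other Dcx window held TATAAA 193 bases before its start. The Elavl4 window, 1 of 4 for this gene and chosen for its motifs, held CAGCTG and CAGATG 46 and 39 bases before the start. Of the other 3 Elavl4 windows, 1 overlapped it and held both motifs, 1 held CATCTG, the other strand of CAGATG, and 1 held none of the motifs. Of 32851 windows of this length over all genes, 13.0% held CAGCTG, 14.4% CAGATG, 12.4% TATAAA and 66.2% CANNTG, and each of these motifs is thus common among promoters. A match is a run of letters and not a measured site.

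Each value below is an RMA value, a log2 signal that the authors had already corrected for background and normalized between arrays, so a difference of 1 is a factor of 2 in signal. Probes differ in how strongly they bind, so levels of different genes are not ranked. RNA was taken from whole neurospheres, and fewer neurons and less marker RNA per neuron cannot be told apart. The median over all transcript clusters lay between 4.82 and 4.91 on the 6 arrays. The progenitor gene Sox2 was at 10.72, 10.78 and 10.77 in the brachial arrays and at 9.55, 10.64 and 10.23 in the tail arrays. Every tail array was thus below every brachial array, as for 9.36% of all genes. The filament gene Vim was at 12.21, 12.21 and 12.15 in the brachial arrays and at 12.40, 12.44 and 12.45 in the tail arrays. For Vim every tail array was above every brachial array, as for 6.88% of all genes. Markers of somites and mesenchyme were high in 4 arrays. The mean RMA value of 12 such genes was 8.41 in brachial replicate 1 and 9.93, 9.82 and 8.53 in the tail arrays, against 4.89 and 4.84 in brachial replicates 2 and 3. Separate cultures or embryos are not stated for the replicates, so p-values measure only the spread between these arrays. Where 3 values are given for a group, they follow the replicate numbers 1 to 3.

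No young neuron marker passed the test between tail and brachial NPCs, but most had their lower mean in tail NPCs. The log2 fold change (tail minus brachial) was below 0 for 8 of 10 markers and ranged from -1.43 for Elavl3 to 0.20 for Stmn2. The median over the 10 markers was -0.35, beside -0.028 over all genes tested, of which 55.2% were below 0, and was -0.23 without brachial replicate 1. By limma, with Benjamini-Hochberg adjustment over 22180 genes, 0 of the 10 had an adjusted p under 0.05 (adjusted p between 0.185 and 0.991), where 0.0631% of all genes were called higher and 0.0406% lower in tail NPCs. At an unadjusted p under 0.05, 3 markers were lower and 0 higher by limma, beside 6.39% and 5.43% of all genes, and the methods' t-test, which the methods name for comparisons of 2 groups in general while the arrays were compared by fold change, gave 1 marker at that level and, after adjustment, 0 of the markers and 0 of all genes, those of every list below included. Markers with a mean lower by 2-fold or more numbered 2 of 10, and 0 were higher by that much, beside 1.74% and 2.35% of all genes. Every tail array lay below every brachial array for the same 2 markers, Elavl3 and Dcx, beside 9.36% of all genes, and the groups overlapped for the other 8.

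**Figure D1:**
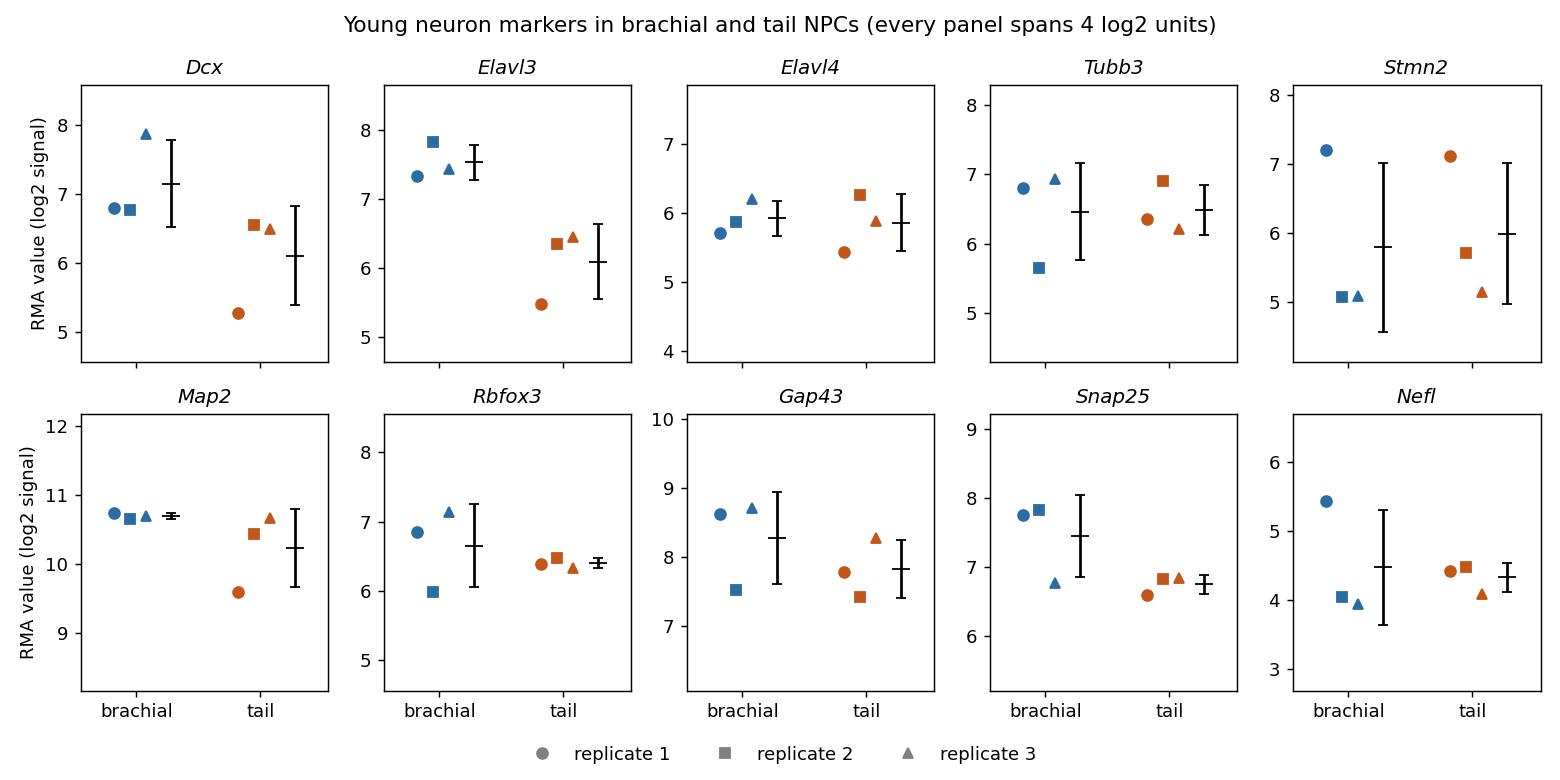
RMA values (log2 signal, vertical axis) of the 10 young neuron markers in 3 brachial (blue) and 3 tail (orange) arrays, with the symbol giving the replicate number and the black bar the mean ± SD of each group. The groups are apart for Dcx and Elavl3 and overlap in the other panels, and brachial replicate 1 and tail replicate 1 stand high for Stmn2.

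Elavl3 encodes HuC, an RNA-binding protein of the Hu family that appears in neurons soon after their last division. Its RMA value was 7.33, 7.82 and 7.43 in the brachial arrays and 5.48, 6.35 and 6.46 in the tail arrays. Every tail array was below every brachial array, and tail replicate 1 was the lowest. The means were 7.53 ± 0.26 in brachial and 6.10 ± 0.54 in tail NPCs (SD, n = 3 arrays each), a signal 2.70-fold higher in brachial NPCs. Tail minus brachial, the log2 fold change was -1.43 (standard error 0.28, 95% interval -2.11 to -0.76, unadjusted p = 0.00156, adjusted p = 0.185 from limma). The interval is for this gene alone and takes no account of the number of genes tested.

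Elavl4, which encodes HuD, another neuronal Hu protein, had groups that overlapped. It was at 5.70, 5.87 and 6.20 in the brachial arrays and at 5.43, 6.26 and 5.88 in the tail arrays, with both the lowest and the highest value in a tail array. Its log2 fold change was -0.065 (95% interval -0.63 to 0.50, adjusted p = 0.948 from limma), and the interval leaves out a change of 2-fold in either direction. Elavl3 minus Elavl4, a difference that holds a fixed probe term and is therefore read only between groups, was 1.63, 1.96 and 1.23 in the brachial arrays and 0.043, 0.094 and 0.58 in the tail arrays. The groups of this within-array difference did not overlap. Its mean was lower by 1.37 in tail NPCs (tail minus brachial, -1.37; exact permutation test, two-sided, p = 0.10, the smallest value that 3 arrays against 3 allow). This pair was chosen after its values were seen.

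Rbfox3 encodes NeuN, the splicing factor used as a nuclear stain of neurons past the earliest stage. Its RMA value was 6.85, 5.98 and 7.13 in the brachial arrays and 6.39, 6.47 and 6.33 in the tail arrays. The tail arrays lay close together, inside the range of the brachial arrays. The log2 fold change was -0.26 (95% interval -0.94 to 0.42, adjusted p = 0.787 from limma). It was -0.59 without brachial replicate 2 (adjusted p = 0.403), -0.16 without brachial replicate 1 and -0.015 without brachial replicate 3.

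Dcx encodes doublecortin, a microtubule-binding protein of migrating young neurons. It was at 6.80, 6.77 and 7.87 in the brachial arrays and at 5.28, 6.54 and 6.50 in the tail arrays. The groups did not overlap, but the gap between brachial replicate 2 and tail replicate 2 was small beside the spread inside each group. The means were 7.15 ± 0.63 and 6.11 ± 0.72 (SD, n = 3 arrays each). This gave a log2 fold change of -1.04 (standard error 0.43, 95% interval -2.07 to -0.012, adjusted p = 0.419 from limma), and it was -0.68 without brachial replicate 3 and -0.63 without tail replicate 1.

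Tubb3 encodes βIII-tubulin, the antigen of the TUJ1 antibody, and showed no such direction. Its value was 6.80, 5.65 and 6.94 in the brachial arrays and 6.35, 6.90 and 6.21 in the tail arrays. Brachial replicate 2 was the lowest array and the other brachial arrays were near tail replicate 2. Its log2 fold change was 0.022 (95% interval -0.85 to 0.89, adjusted p = 0.991 from limma), and its sign turned with the scaling, to -0.027 after a second quantile normalization and -0.071 after centring on housekeeping genes. With 1 array left out it ran from -0.38 (without brachial replicate 2) to 0.26 (without brachial replicate 3).

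Map2 encodes a microtubule-associated protein of dendrites. It was nearly the same in the brachial arrays, at 10.74, 10.65 and 10.69, and was at 9.60, 10.43 and 10.67 in the tail arrays. The SD was 0.047 in brachial and 0.56 in tail NPCs, and tail replicate 1 stood apart. The log2 fold change was -0.46 (95% interval -1.10 to 0.18, adjusted p = 0.559 from limma) and was -0.14 without tail replicate 1.

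Stmn2, which encodes stathmin-2 (SCG10), a regulator of microtubule turnover in growth cones, had the largest SD of the 10 markers in both groups (1.22 in brachial and 1.02 in tail NPCs). It was at 7.20 in brachial replicate 1 and 7.12 in tail replicate 1, and at 5.08, 5.10, 5.71 and 5.14 in brachial replicates 2 and 3 and tail replicates 2 and 3. The high arrays were thus 1 from each group. By limma the log2 fold change was 0.20 (standard error 0.71, 95% interval -1.48 to 1.88, adjusted p = 0.946). It went to 0.90 without brachial replicate 1 and to -0.37 without tail replicate 1, so the sign was set by single arrays.

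Nefl, which encodes the neurofilament light chain, was the one marker removed by a filter on dim transcript clusters (mean under 4.85, the median of all). Its value was 5.44 in brachial replicate 1 and between 3.95 and 4.48 in the other 5 arrays. The log2 fold change was -0.15 (95% interval -1.08 to 0.79, adjusted p = 0.923 from limma) and was 0.33 without brachial replicate 1 and -0.41 without brachial replicate 3. Brachial replicate 1 thus held the highest value of both Stmn2 and Nefl. It was also the brachial array with the high mesenchymal markers, and the part of these in the result was not tested.

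Gap43 encodes a phosphoprotein of growing axons. It was at 8.62, 7.52 and 8.71 in the brachial arrays and at 7.79, 7.43 and 8.27 in the tail arrays, and brachial replicate 2 lay among the tail arrays. Between the groups the log2 fold change was -0.45 (95% interval -1.31 to 0.41, adjusted p = 0.681 from limma), and single arrays moved it, to -0.84 without brachial replicate 2, -0.24 without brachial replicate 3, -0.25 without tail replicate 2 and -0.29 without brachial replicate 1.

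Snap25, whose product is part of the SNARE complex that fuses synaptic vesicles with the membrane, was at 7.75, 7.83 and 6.77 in the brachial arrays and at 6.59, 6.83 and 6.83 in the tail arrays. Brachial replicates 1 and 2 were above all tail arrays, while brachial replicate 3 was among them. For Snap25 the log2 fold change was -0.70 (standard error 0.29, 95% interval -1.38 to -0.019, adjusted p = 0.412 from limma). Without brachial replicate 3 it was -1.04 (adjusted p = 0.313), and with any other single array left out it lay between -0.74 and -0.51, with an unadjusted p above 0.05 in limma each time.

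**Figure D2:**
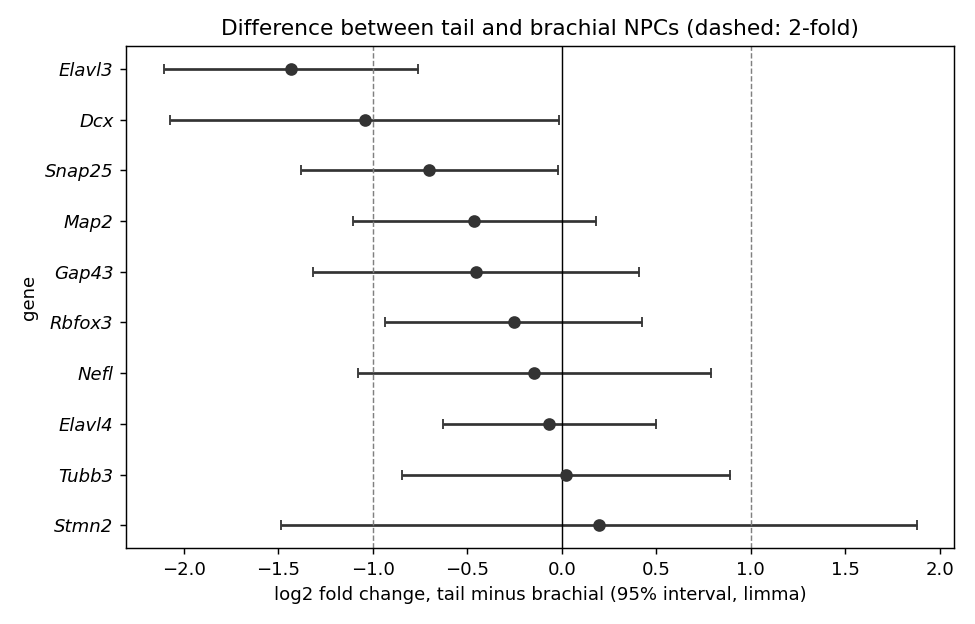
Log2 fold change of each marker, tail minus brachial (horizontal axis), as points with the 95% interval of limma for that gene alone; dashed lines mark 2-fold. Elavl3 lies farthest from 0 at -1.43, and the intervals of Elavl4, Tubb3 and Rbfox3 lie inside the 2-fold lines.

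For 3 markers (Elavl4, Tubb3 and Rbfox3) the 95% interval excluded a change of 2-fold in either direction. For the other 7 it did not, and a p above the threshold does not show that their levels were alike in tail and brachial NPCs.

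The markers did not vary together as 1 block. Tail replicate 1 held the lowest value of 5 markers, Dcx, Elavl3, Elavl4, Map2 and Snap25, and brachial replicate 2 the lowest of 3, Tubb3, Stmn2 and Rbfox3. Brachial replicate 3 held the highest value of 4, Dcx, Tubb3, Rbfox3 and Gap43, and brachial replicate 1 of 3, Stmn2, Map2 and Nefl. Elavl4 was the one marker at its highest in a tail array, tail replicate 2. After each marker was centred on its own mean over the 6 arrays, the mean of the 10 deviations was 0.50, -0.10 and 0.25 in the brachial arrays and -0.38, -0.084 and -0.19 in the tail arrays. Brachial replicate 2 thus lay slightly below tail replicate 2, and the groups overlapped on this summary. Of the 10 markers, 9 were above their own mean in brachial replicate 1, 4 in brachial replicate 2 and 7 in brachial replicate 3, against 2, 3 and 2 in the tail arrays.

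**Figure D3:**
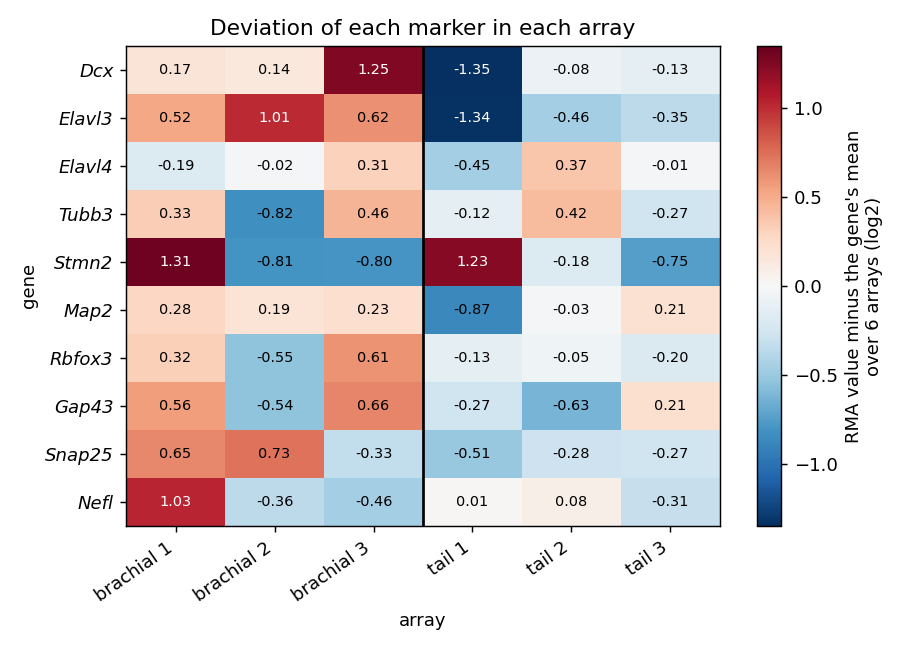
Deviation of each marker (rows) in each array (columns) from that gene's mean over the 6 arrays, in log2 units, with brachial arrays left and tail arrays right of the line. Tail replicate 1 is low for Dcx (-1.35) and Elavl3 (-1.34) and high for Stmn2 (1.23).

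Over the 6 arrays, the genes most like the mean deviation of the markers were Stk32a, a kinase gene, Mir9-3hg, the host gene of a neural microRNA, Enc1, which encodes an actin-binding protein of the nervous system, and Mark1, a kinase gene of microtubule regulation. By limma none of the 4 was called (adjusted p between 0.335 and 0.489, log2 fold changes between -1.51 and -0.49). Stk32a was at 7.98, 5.96 and 6.99 in the brachial arrays and at 4.74, 6.07 and 5.59 in the tail arrays, with brachial replicate 2 among the tail arrays as in the marker mean. Their Pearson r with that mean, in the order named, was 0.995, 0.990, 0.989 and 0.988 over the same 6 arrays. The search covered 4397 genes with a range of 1 or more on the log2 scale, and 40 of them had an r above 0.9, so the order among them is a description of these arrays. How many of the 4397 genes would reach such an r by chance over 6 arrays was not tested.

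Other genes of the neuronal programme were read from 5 lists of 43 genes, of which 41 were measured. None was called by limma (0 of 41). At an unadjusted p under 0.05 in limma, 14 were lower in tail NPCs and 0 higher, beside 6.39% and 5.43% of all genes. The log2 fold change was below 0 for 34, beside 55.2% of all genes, and the median was -0.32. Every tail array lay below every brachial array for 13 of them and above for 1, beside 9.36% and 6.88% of all genes.

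Relatives of the microtubule markers had lower means in tail NPCs throughout. All 12 measured genes of this list had a log2 fold change below 0, beside 55.2% of all genes. Of these, 8 had an unadjusted p under 0.05 in limma, beside 6.39% of all genes, with 0 called and a median of -0.80. Map6, which stabilizes microtubules, had -0.83 (adjusted p = 0.181), Mapt, which encodes tau, -1.23 (adjusted p = 0.202) and Stmn3, a relative of Stmn2, -0.79 (adjusted p = 0.272). The list's mean RMA value was 7.88 to 8.30 in brachial and 7.23 to 7.53 in tail arrays. The brachial and tail ranges of the list mean were apart here, and also for the RNA-binding (6.06 to 6.32 against 5.71 to 5.94), growth cone and axon (8.28 to 8.59 against 8.06 to 8.14) and synaptic release lists (6.84 to 6.97 against 6.13 to 6.61), while those of the intermediate filament list overlapped. Some of these genes, such as Tuba1a and Tubb2b, are also expressed by progenitors. Such a separation was not particular to neuronal lists. The list means of oligodendrocyte lineage genes were apart too, at 8.14 to 8.36 in brachial and 6.99 to 7.87 in tail arrays. Those of the mesenchyme list were apart in the opposite direction. Across brachial replicates 1 to 3 the microtubule list mean was 7.88, 8.30 and 7.98, highest in replicate 2, where the young neuron marker mean was lowest. The astrocyte and oligodendrocyte list means were also highest in replicate 2 among the brachial arrays, at 9.54 and 8.36. Those of the other neuronal lists were lowest there. The part of glial RNA in the microtubule values was not tested.

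Among relatives of the RNA-binding markers, limma called 0 of 8 (1 lower at an unadjusted p under 0.05), and Nova1, a neuronal splicing factor gene, had the smallest p (log2 fold change -1.70, adjusted p = 0.315). Among 10 genes of the growth cone and axon, 0 were called (1 at that unadjusted level), and Nrcam, an adhesion gene of axons, had a log2 fold change of -2.26 (adjusted p = 0.182). Among 7 measured genes of synaptic release, 0 were called (4 lower at that level, beside 6.39% of all genes), with a median of -0.62. Snap91, a gene of synaptic vesicle coats, had -1.28 (adjusted p = 0.209), Syt1, the calcium sensor of release, -0.85 (adjusted p = 0.338) and Sv2a, a vesicle protein gene, -1.41 (adjusted p = 0.347). Among the 4 intermediate filament relatives of Nefl, 0 were called (0 at an unadjusted p under 0.05), and 2 had a log2 fold change below 0. Ina was at 8.02, 6.31 and 7.79 in the brachial arrays and at 5.90, 6.53 and 6.99 in the tail arrays. Its log2 fold change was -0.90 (adjusted p = 0.527 from limma). Prph, which encodes peripherin, a filament of peripheral and of motor neurons, was at 9.28 and 8.46 in tail replicates 1 and 2 and between 4.48 and 5.18 in the other 4 arrays (log2 fold change 2.39, adjusted p = 0.471). Nefm, the partner of Nefl in the neurofilament, was between 4.28 and 4.77 on all arrays.

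Genes that precede the markers in neurogenesis had no common direction. Of 17 measured commitment factors 0 were called by limma, 3 had an unadjusted p under 0.05 (Ebf1 and Ebf2 higher, Myt1 lower), and the median was -0.13. Myt1, a zinc finger factor that promotes neuronal fate, had a log2 fold change of -1.31 (adjusted p = 0.202). Ebf1 and Ebf2, which act in neuronal migration and also in mesodermal lineages, had 2.89 and 2.48 (adjusted p = 0.340 and 0.313). In the brachial arrays Ebf1 was at 8.34, 4.52 and 6.02 and Ebf2 at 7.58, 5.03 and 5.32, so brachial replicate 1, with its high mesenchymal markers, was the highest brachial array for both. The part of mesenchymal RNA in these values was not tested. Neurog1, Neurog2 and Neurod1, proneural genes and an early neuronal factor, had log2 fold changes between -0.18 and -0.13.

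Markers of settled neuron types were read from 2 lists. The list mean of 7 motor neuron genes was 4.45 to 4.59 in brachial and 4.34 to 4.48 in tail arrays, and that of 10 interneuron and transmitter genes 4.63 to 4.86 and 4.47 to 4.63. Limma called 0 of these 17 genes, 1 had an unadjusted p under 0.05, and this was Gad1, which encodes an enzyme of GABA synthesis, with a log2 fold change of -0.48 (adjusted p = 0.297). The defining motor neuron gene Mnx1 was between 2.97 and 3.60 and Chat, which encodes the enzyme of acetylcholine synthesis, between 4.64 and 4.87. Isl1 held the highest value of the motor neuron list, at 6.12 in brachial replicate 1, and was at 5.95 in tail replicate 2. Of the 7 motor neuron genes 5, and of the 10 interneuron and transmitter genes 7, had a mean under 4.85, the median of all.

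Markers of other cells also differed between the arrays, and their part in the values of the young neuron markers was not tested. The progenitor list had a median log2 fold change of -0.22 over 12 genes (0 called, 3 at an unadjusted p under 0.05, of which Hes1 higher; Sox3 -1.16, adjusted p = 0.272), with list means of 8.48 to 8.73 in brachial and 8.25 to 8.55 in tail arrays. Genes of astrocytes and radial glia had a median of -0.68 over 12 (0 called, 3 at that level; Aldh1l1 -2.19, adjusted p = 0.0975) and oligodendrocyte lineage genes -0.73 over 9 (0 called, 2 at that level). The 12 somite and mesenchyme genes had a median of 3.63 (0 called, with all 12 above 0 and at an unadjusted p under 0.05), with list means of 4.84 to 8.41 in brachial and 8.53 to 9.93 in tail arrays. Cell cycle genes had a median of 0.53 over 11 (0 called, 0 at that level), with list means of 8.10 to 8.45 in brachial arrays and 9.31, 9.14 and 7.94 in the tail arrays. Tail replicate 1, the array with the lowest value of 5 markers, had the highest list means of mesenchyme and cell cycle genes. Tail replicate 3 had the lowest list means of both among the tail arrays. The mean deviation of the young neuron markers was nevertheless lower in tail replicate 3 (-0.19) than in tail replicate 2 (-0.084). It was highest in brachial replicate 1 (0.50), the brachial array with the highest mesenchyme list mean (8.41). Sensory ganglion and neural crest genes had list means of 6.02 to 6.33 in brachial and 5.98 to 6.38 in tail arrays (median log2 fold change -0.0025 over 8 genes, 0 called). The members differed in direction, with Snai2, a crest and mesenchyme gene, at 3.17 (adjusted p = 0.234) and Ednrb, a crest and glial receptor gene, at -1.82 (adjusted p = 0.359), while the sensory neuron factor Pou4f1 was between 3.96 and 4.62 on all arrays. Endothelial and blood genes had a median of 0.0071 over 10, and forebrain genes -0.012 over 8. In each list limma called 0, and 2 were higher in tail NPCs at that unadjusted level, beside 5.43% of all genes. These were Cd34 (1.95, adjusted p = 0.280) and Kdr (2.76, adjusted p = 0.355) in the first list. In the second they were Dlx2 (2.73, adjusted p = 0.215) and Dlx5 (0.48, adjusted p = 0.381).

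**Figure D4:**
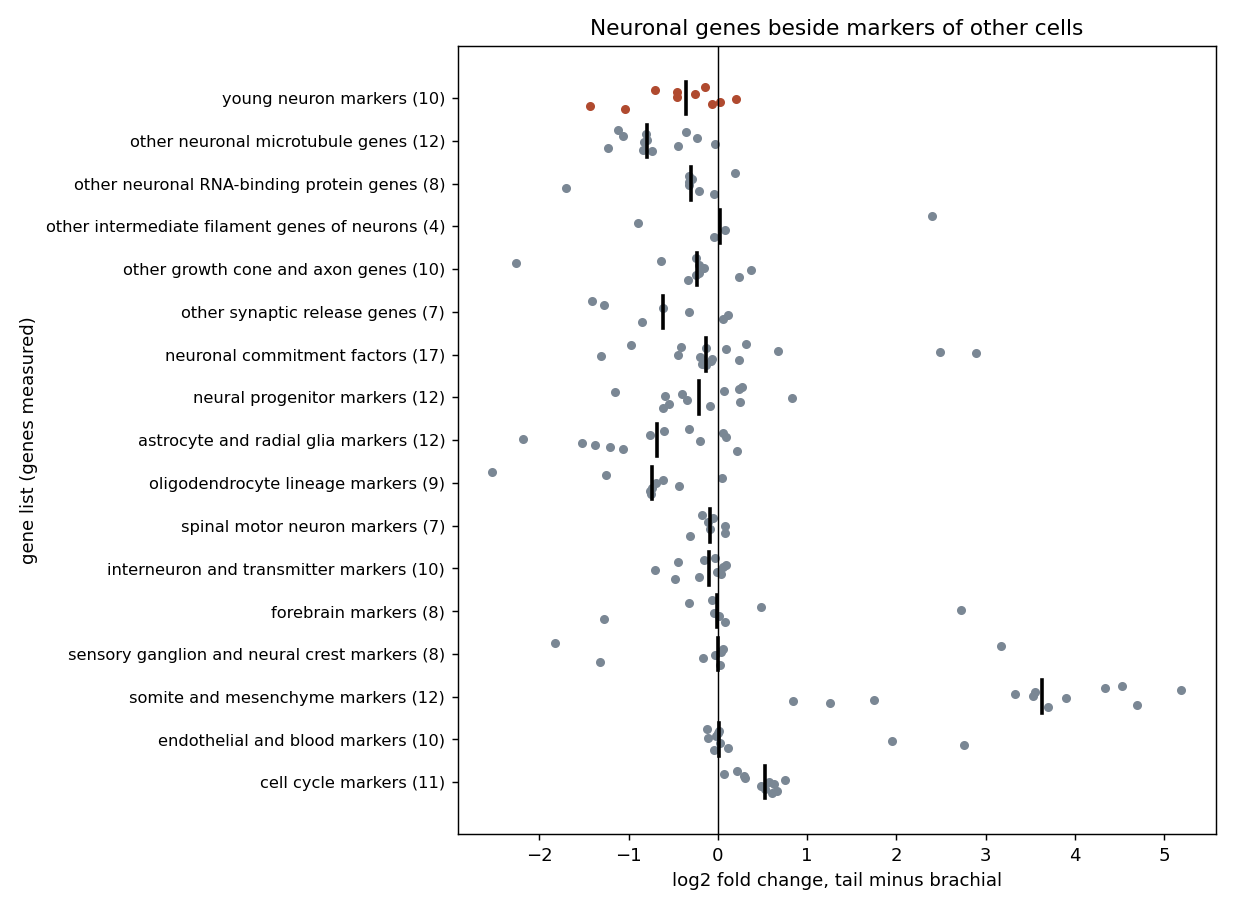
Log2 fold change, tail minus brachial (horizontal axis), of each measured gene (points) on the young neuron marker list (red) and on the other lists (grey), with a black bar at each list's median. The marker median is -0.35, that of the other microtubule genes -0.80 and that of the mesenchyme genes 3.63.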

How the data were processed

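RNA of neurospheres from 3 brachial and 3 tail NPC samples was measured on Affymetrix whole-transcript arrays. The log2 values deposited by the authors are gene-level RMA signals from Affymetrix Expression Console (versions not given in the sources used here). Background correction, quantile normalization and probe summary are thus already applied, and total RNA cannot be compared. Although the methods give a human array, the probes are annotated to mouse genes. All 6 columns were matched to samples by accession, and 0 columns belonged to other samples. Of 41345 transcript clusters 23521 carried exactly 1 symbol, and the cluster with the highest mean over the 6 arrays stood for a gene, which gave 22180 genes. The comparison used limma 3.58.1 under R 4.3.3, by lmFit and eBayes without a block. Calls needed an adjusted p under 0.05 (Benjamini-Hochberg, all genes).

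The members and lists were chosen with earlier results of these data known. All 10 markers are named. From other lists, called genes or up to 3 with the smallest p are named, and beyond this rule Sox2, Vim, Neurog1, Neurog2, Neurod1, Mnx1, Chat, Isl1, Pou4f1, Nefm, Tuba1a and Tubb2b, chosen after their values were seen. Non-member genes most alike were the 4 with the highest Pearson r over the 6 arrays. The limma step was tested on simulated data for tail against brachial NPCs over 22180 genes, and recovered 30% of 50 genes changed by 1 and 84% of 50 changed by 2 on the log2 scale, with 12 of 161 calls false. The changed genes were drawn at random from all genes, and the simulated noise was independent between genes. Shifts that many genes of an array share were not simulated, so these shares do not give the recovery for the markers. Alternatives were a replicate block, the methods' t-test, other eBayes settings, array weights, a filter on dim clusters, cluster means, all clusters tested, a second quantile normalization, housekeeping centring, linear means and each array left out. Promoters came from RefSeq (GRCm38.p6). The number of arrays limits the precision.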

Additional observations from a re-analysis of the deposited data

How the results depend on the processing

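Under all 15 alternatives with a test, 0 of the 10 markers were called by limma or the methods' t-test (1 to 4 at an unadjusted p under 0.05), and the smallest adjusted p was that of Elavl3 with the replicate number as a block, 0.0582 (0.0582 to 0.585 over the alternatives of Elavl3). Nefl was left out by the filter on dim clusters. The median of the markers stayed below 0, at -0.50 to -0.23 when 1 array was left out and -0.45 to -0.35 otherwise. Elavl3, Dcx, Snap25, Map2, Rbfox3 and Gap43 kept their sign under every alternative run. Elavl4 turned to 0.048 with array weights. Tubb3 turned to -0.027 after quantile normalization again, to -0.071 after housekeeping centring and to -0.049 with linear means. With 1 array left out Elavl4 ran from -0.27 to 0.15, Tubb3 from -0.38 to 0.26, Stmn2 from -0.37 to 0.90 and Nefl from -0.41 to 0.33, and the cause was not tested. The count of all genes called, 23 in the fit reported, was 194 (123 higher, 71 lower) with the replicate block, 0 with the methods' t-test (1866 at an unadjusted p under 0.05), 39 with array weights, 6 with all transcript clusters tested, and 0 (without tail replicate 1 or 2) to 266 (without tail replicate 3) with 1 array left out. With the brachial arrays left out in turn it was 105, 3 and 2 for replicates 1, 2 and 3. The labels do not say that equal replicate numbers form pairs, so the numbers were not taken as pairs. Deviations of same-numbered arrays correlated at 0.24, -0.12 and 0.21 for numbers 1 to 3. Those of arrays with different numbers correlated between -0.33 and 0.15, so the values for numbers 1 and 3 were the highest of all. Whether equal numbers share an origin was not tested.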
